A study of Mus musculus with 4 samples.

Results

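Inward rectifier potassium channels of the stria vascularis (SV), the potassium-secreting epithelium in the lateral wall of the cochlea, were examined as the 6 genes Kcnj10, Kcnj13, Kcnj16, Kcnj2, Kcnj8 and Kcnj15. They were taken by symbol, and all 6 were found among the 27998 genes listed for each cell library and among the 48816 genes listed for the nuclei. Both gene lists hold 15 genes of the Kcnj family. The SV came from CBA/J mice at postnatal day 30, with no treatment or genetic change named, and was profiled as 3 captures of whole cells and 1 capture of nuclei on the 10x Genomics Chromium 3' platform. All libraries are of pooled animals, about 12 mice for each cell suspension and about 10 for the nuclei by the labels, whereas the methods of the study also give other numbers. The cells had been freed with trypsin and the nuclei by lysis of the tissue.

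Inward rectifiers pass potassium into a cell more easily than out of it and set the resting potential of many cells. In the SV the endocochlear potential is generated across the intermediate cell layer, where the channel Kir4.1, the product of Kcnj10, is the best known conductance, and loss of Kcnj10 causes deafness. Kir5.1, the product of Kcnj16, forms channels together with Kir4.1 in other tissues such as kidney and glia. Kcnj13 encodes Kir7.1, a channel of small conductance known from the retinal pigment epithelium and the choroid plexus. Kcnj2 encodes the strong rectifier Kir2.1, Kcnj8 the pore subunit Kir6.1 of vascular ATP-sensitive channels, and Kcnj15 the subunit Kir4.2.

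The 6 genes lie on 4 chromosomes. On the mm10 build (GENCODE vM21), Kcnj10 is at chr1:172341210-172374085 on the plus strand and Kcnj13 at chr1:87386363-87394729 on the minus strand, inside the gene Gigyf2 and opposite to it. Kcnj16 (chr11:110968033-111027968) and Kcnj2 (chr11:111066164-111076821) are neighbours on the plus strand, 38.2 kb apart. Kcnj8 is at chr6:142564837-142571614 on the minus strand, 16.25 kb from Abcc9, the gene of its regulatory partner. Kcnj15 is at chr16:95257558-95300260 on the plus strand and is overlapped by 2 antisense genes that neither gene list holds. Whether reads were assigned by strand is not given in the sources used here, so reads of Kcnj13 and Gigyf2, or of Kcnj15 and its antisense genes, could not be told apart by the counts alone.

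RefSeq promoter windows (build GRCm38.p6, 250 bases before to 50 bases after a start site) matched all 6 genes. The 3 channels with enough RNA to be compared are shown, because their type patterns differ. Capitals mark matches on either strand to the motifs searched, which were the MITF M-box TCATGTG, the E-box CACGTG, the SOX motif ACAAAG and the ESRRB motif AAGGTCA. The windows are chr1:172340960-172341259 on the plus strand for Kcnj10, chr1:87394680-87394979 on the minus strand for Kcnj13 and chr11:110967783-110968082 on the plus strand for Kcnj16, the first of 4 windows of that gene.
Kcnj10: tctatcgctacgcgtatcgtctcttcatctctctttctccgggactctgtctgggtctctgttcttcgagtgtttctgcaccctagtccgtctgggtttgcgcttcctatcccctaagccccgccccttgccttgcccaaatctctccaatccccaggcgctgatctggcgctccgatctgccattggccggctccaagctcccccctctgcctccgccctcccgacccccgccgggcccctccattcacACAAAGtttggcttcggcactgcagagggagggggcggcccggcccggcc
Kcnj13: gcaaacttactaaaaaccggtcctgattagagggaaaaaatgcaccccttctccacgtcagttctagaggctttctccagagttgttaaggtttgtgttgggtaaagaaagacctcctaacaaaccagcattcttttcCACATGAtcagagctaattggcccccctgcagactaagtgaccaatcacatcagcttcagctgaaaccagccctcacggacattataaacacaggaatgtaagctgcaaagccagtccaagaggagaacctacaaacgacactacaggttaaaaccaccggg
Kcnj16: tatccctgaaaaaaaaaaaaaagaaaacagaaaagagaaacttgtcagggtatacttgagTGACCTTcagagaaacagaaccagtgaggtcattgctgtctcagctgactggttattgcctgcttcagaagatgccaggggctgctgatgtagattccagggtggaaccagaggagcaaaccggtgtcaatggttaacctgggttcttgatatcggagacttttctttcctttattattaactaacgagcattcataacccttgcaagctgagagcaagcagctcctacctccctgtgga
The window of Kcnj13 held an M-box on the strand opposite to the gene that begins 112 bases before the start site, a motif found in 3.77% of all 32851 promoter windows. The M-box is a binding motif of MITF, the master regulator of pigment cells, of which the intermediate cell is one. The window of Kcnj10 held a SOX match at its start site, found in 18.7% of all windows, and the window of Kcnj16 an ESRRB match that begins 190 bases upstream, found in 4.72%. The other 3 windows of Kcnj16 and the window of Kcnj8 held none of the 4 motifs, the window of Kcnj2 held an E-box, found in 7.15%, and that of Kcnj15 a SOX match. A match is a description of letters and not of a bound site.

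After barcodes with fewer than 200 genes and predicted doublets were left out, 377, 1315 and 1462 cells and 9754 nuclei remained, with a median of 5050, 4891, 3872.5 and 1499 unique molecular identifiers (UMIs) per barcode. Mitochondrial genes made up a median of 38.65% to 45.41% of the UMIs of a cell and 8.3% of those of a nucleus. Barcodes shared between 2 libraries numbered 0 to 32. Clusters were named from marker genes that include no Kcnj gene, and no Kcnj gene took part in the clustering, so a type name such as intermediate stands here for an intermediate-like cluster. This gave 134 marginal, 950 intermediate, 96 basal and 30 spindle/root cells, and 2592, 1475, 621 and 202 such nuclei. Marginal cells face the endolymph, basal cells seal the SV toward the spiral ligament, and spindle and root cells border its edges. Further 1758 cells and 3939 nuclei stayed unnamed, and no cluster was named as endothelial, pericyte or macrophage.

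The 6 channels differed in how much of their RNA was found and where it lay. Over the 3 cell captures and the nuclei, Kcnj10 had 24789 and 8636 UMIs, Kcnj13 3035 and 2719, Kcnj16 117 and 231, and Kcnj2 85 and 39. Kcnj8 had 12 UMIs in the cells and 0 in the nuclei, and Kcnj15 had 0 in the cells and 3 in the nuclei. Intermediate cells, which held 33.9% of all UMIs of the cells, held 53.2% (exact 95% binomial interval 52.5 to 53.8) of the Kcnj10 UMIs and 71.5% (69.8 to 73.1) of the Kcnj13 UMIs. Intermediate nuclei, with 13.6% of all UMIs of the nuclei, held 23.6% (22.7 to 24.5) and 56.3% (54.4 to 58.2) of them. Spindle/root barcodes held 76.9% (68.2 to 84.2) of the Kcnj16 UMIs of the cells and 77.9% (72.0 to 83.1) of those of the nuclei, beside 1.40% and 1.91% of all UMIs. Such intervals cover counting error only.

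**Figure D1:**
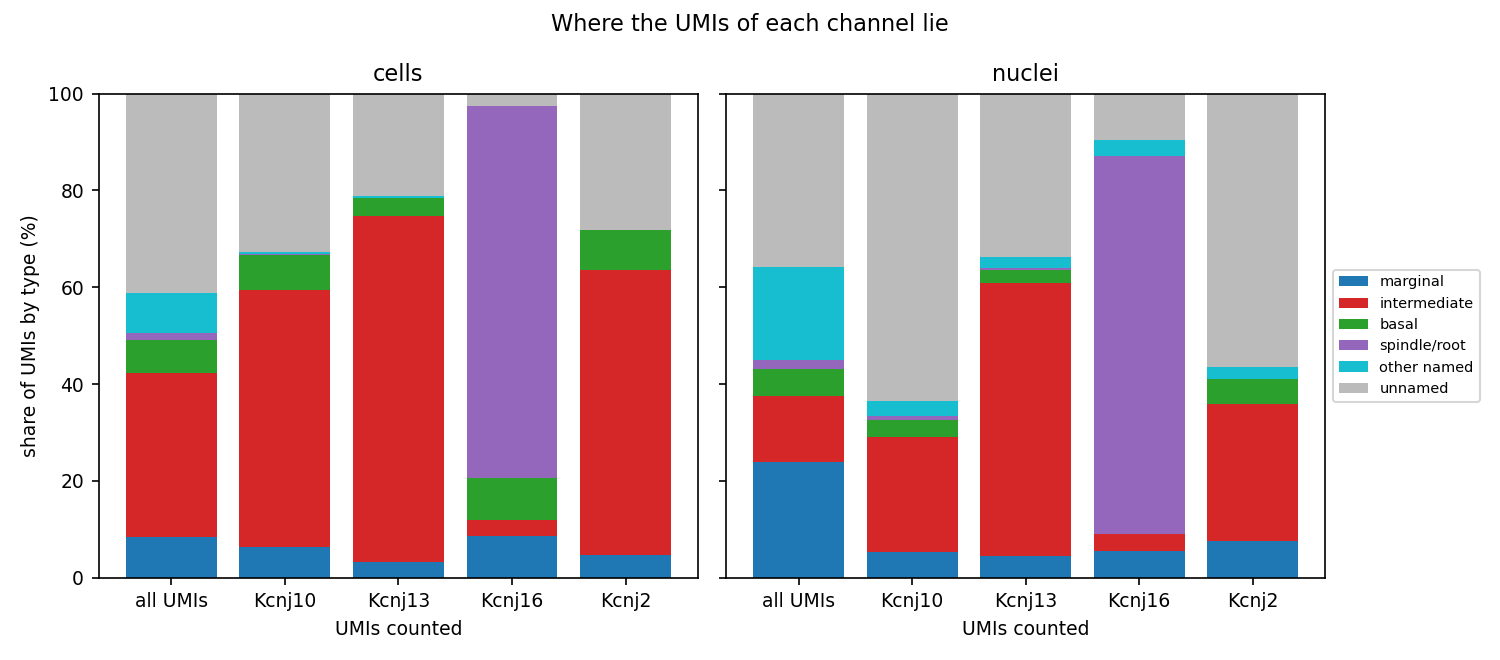
Share of UMIs (y axis, percent) by named type in cells (left) and nuclei (right) for all UMIs and for 4 channels (x axis), pooled over captures, with no error drawn. Kcnj13 lies mostly in intermediate barcodes (71.5% in cells, 56.3% in nuclei) and Kcnj16 mostly in spindle/root barcodes (76.9% and 77.9%).

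To ask which type each channel marks, UMIs were summed per capture and type and compared in edgeR with the capture as a block. Spindle/root cells of capture 1 were too few (4, with a minimum of 5), so 11 sums entered the fit and that type rests on captures 2 and 3. Of the 6 channels, Kcnj10, Kcnj13 and Kcnj16 passed the filter on low counts, and Kcnj2, Kcnj8 and Kcnj15 did not. Kcnj16 passed through its spindle/root sums (428.1 and 275.2 CPM), as its highest level in any other sum was 13.6 CPM. Its calls are therefore not independent of the filter. Called higher at an adjusted p under 0.05 against the mean of the other 3 types were Kcnj10 and Kcnj13 in intermediate cells, where 18.5% of the 7156 genes tested were called higher, Kcnj10 and Kcnj13 in basal cells (15.8% of genes) and Kcnj16 in spindle/root cells (12.3% of genes). Called lower were Kcnj16 in intermediate cells (16.7% of genes) and Kcnj10 and Kcnj13 in spindle/root cells (9.99% of genes). The lower call of Kcnj16 was against a mean that holds the spindle/root cells, at 351.6 CPM. Intermediate cells held 4 Kcnj16 UMIs, and basal and marginal cells 10 each. In marginal cells 0 of the 3 were called higher (16.0% of genes) or lower (9.53%), and in basal cells 0 were called lower (10.1%). For each of these 3 counts edgeR also gave 0 channels at an unadjusted p under 0.05, and DESeq2 called 0. Over all genes, intermediate cells had 1323 genes higher and 1194 lower, but 701 higher and 2127 lower with no scaling beyond the library total, which moved the median log2 fold change of all genes in that comparison from 0.05 to -0.29.

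Kcnj10, the Kir4.1 channel, was highest in intermediate cells. Its level there was 2573, 2014 and 2038 CPM (UMIs of the gene, scaled to the same total in every sum) in captures 1, 2 and 3, a mean of 2208 ± 316 (SD, n = 3). Basal cells had 1758, 1260 and 1263 CPM, a mean of 1427 ± 286.7 (SD, n = 3). Marginal cells had 1391, 1010 and 824 CPM, a mean of 1075 ± 289 (SD, n = 3). The order intermediate, basal, marginal held within each of the 3 captures, whereas the ranges of basal and marginal cells over the captures overlapped. Spindle/root cells were far below, with 208.8 and 211.7 CPM in captures 2 and 3.

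In the fit, which compares relative to TMM scaling, Kcnj10 was higher in intermediate than in basal cells by 0.90 ± 0.11 (SE) on the log2 scale (edgeR, adjusted p = 6.92e-11). Basal exceeded marginal cells by 0.47 ± 0.12 (adjusted p = 0.000644, edgeR), and marginal exceeded spindle/root cells by 2.30 ± 0.21 (adjusted p = 4.01e-16, edgeR). Of all genes tested, 33.1% were called in either direction between intermediate and basal, 29.9% between basal and marginal and 21.3% between marginal and spindle/root cells. Every neighbouring pair in the order passed the test, although the step from basal to marginal cells missed it at a cluster resolution of 1.2 (0.38, adjusted p = 0.0515, edgeR). Marginal cells did not differ from the mean of the other types beyond the error (0.15, adjusted p = 0.372, edgeR). The call of Kcnj10 as higher in basal cells was against a mean that holds the low spindle/root cells. Basal cells lay below intermediate cells. From in situ hybridization and its nuclei, the study describes Kcnj10 RNA as confined within the SV to intermediate cells. That leaves out basal cells, and it also states a failure to localize this RNA to marginal cells. In its nuclei the study calls the expression largely, but not completely, confined to the intermediate cluster. For the wider detection in the cell captures it names several possibilities. Among them are RNA released into the suspension, intermediate cell processes adhering to other cells, and remaining doublets. The steps above are differences in counts, and the part of such RNA in them was not tested.

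RNA of the markers of intermediate cells was also found in the other types, beside Kcnj10. The 9 markers used for intermediate cells (Cd44, Met, Dct, Tyr, Tyrp1, Pmel, Mlana, Pax3 and Mitf), which include the melanin enzymes Dct and Tyr, summed in marginal cells to 31.9%, 26.6% and 27.1% of their level in the intermediate cells of the same capture. In basal cells they reached 38.5%, 31.0% and 40.9%, in erythroid cells 5.70% and 1.25% (captures 2 and 3), and in spindle/root cells 2.82% and 2.43%. Between 1 and 5 of the 9 markers were at 0 in any of these sums, and 1 or 2 in the intermediate cells themselves. Kcnj10 in marginal cells was at 54.0%, 50.1% and 40.4% of its intermediate level.

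For every 100 UMIs of these markers, marginal cells held 16.56, 16.27 and 15.86 UMIs of Kcnj10 and basal cells 17.33, 17.40 and 16.16. Erythroid cells, which should lack the channel, held 15.90 (exact 95% interval 10.51 to 23.31) and 16.81 (11.60 to 23.79) in captures 2 and 3, and B cells of capture 3 held 15.52 (6.76 to 31.53). The marginal and basal values of all captures and the erythroid values of captures 2 and 3 thus lay between 15.86 and 17.40. The erythroid intervals were wider than this range. Fibrocyte cells lay lower with wide intervals, at 12.31 (5.099 to 25.72) and 7.69 (2.42 to 18.89) in captures 2 and 3. Intermediate cells held 9.76, 8.63 and 10.65. Spindle/root cells stood above all of these, with 31.75 (18.18 to 53.22) and 45.45 (25.38 to 78.76). The part of intermediate cell RNA in the Kcnj10 values of other types was not tested.

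Clusters inside a type were compared as well. The 3 clusters of marginal cells, of 57, 45 and 32 cells, had Kcnj10 at 1540, 562.7 and 75.35 CPM, while the summed markers of intermediate cells were at 9597, 3301 and 425.5 CPM. The 2 clusters of basal cells had Kcnj10 at 1905 and 607.4 CPM beside 11250 and 3344 CPM of the markers. A cluster that was high in one was thus high in the other. Kcnj10 in the third marginal cluster was near the 63.14 CPM of the erythroid cluster.

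**Figure D2:**
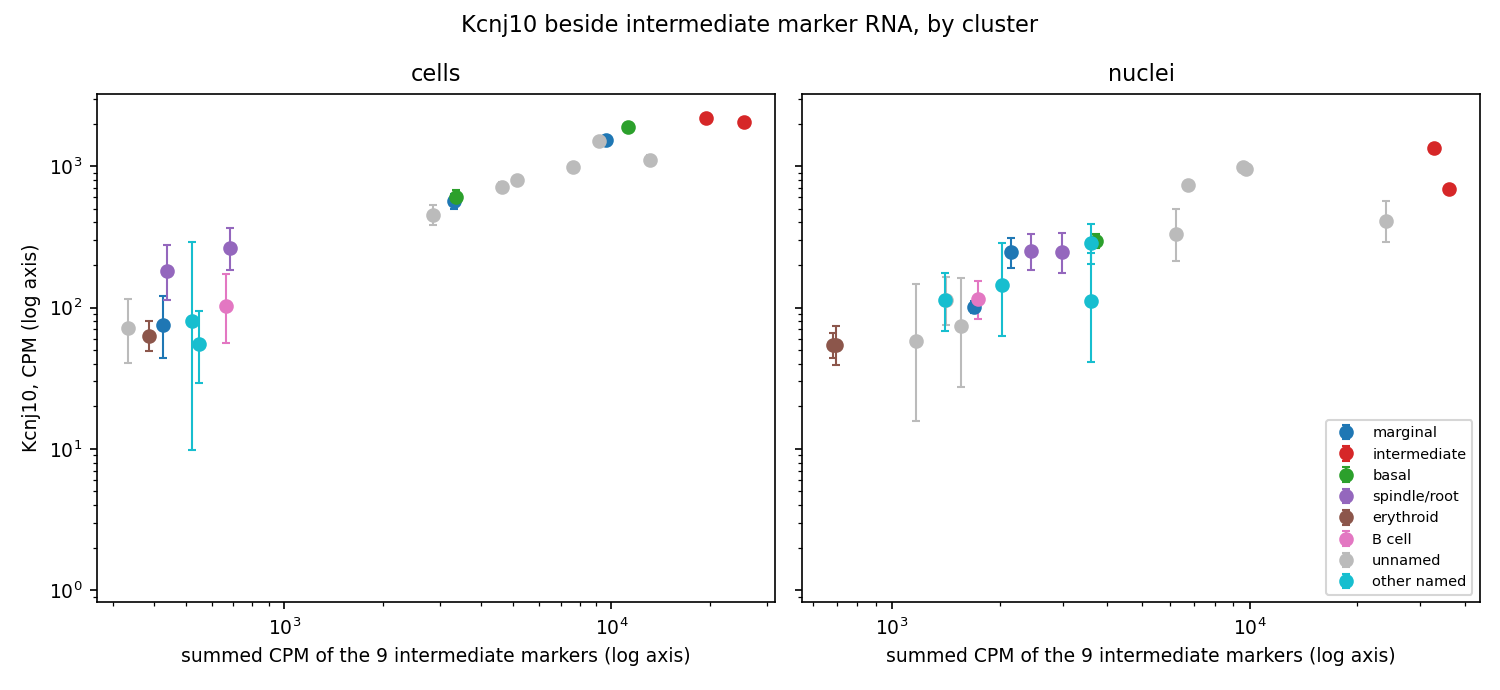
Kcnj10 (y axis, CPM, log axis) against the summed intermediate markers (x axis, CPM, log axis) in each cluster of cells (left) and nuclei (right), with exact 95% Poisson intervals as bars and colours for the named type. Marginal and basal clusters of cells lie along 1 band with the erythroid cluster, and the 2 spindle/root clusters (181.6 and 264.9 CPM) lie above it.

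In the nuclei, Kcnj10 was again highest among these 4 types in intermediate barcodes. Intermediate nuclei had 834 CPM (2038 UMIs, exact 95% Poisson interval 798.1 to 871), basal nuclei 294.4 (262 to 329.8), spindle/root nuclei 248.4 (198.4 to 307.1) and marginal nuclei 109.6 (99.86 to 119.9). The order thus differed from that of the cells, since marginal nuclei were lowest and the intervals of basal and spindle/root nuclei overlapped. The intermediate level was 3.36-fold that of spindle/root barcodes in the nuclei and 10.5-fold in the cells. Erythroid nuclei, as a type that should lack the channel, had 54.36 CPM and B cell nuclei 114.6 CPM. Marginal nuclei were thus not above the B cell value. Fibrocyte nuclei had 128.5 and neutrophil nuclei 113 CPM. Reissner's membrane nuclei had 285 CPM (203.6 to 388.1), an interval that overlapped those of basal and spindle/root nuclei. Per 100 UMIs of the intermediate markers, nuclei held 6.35 Kcnj10 UMIs in marginal, 7.92 in basal, 7.90 in erythroid, 6.59 in B cell and 9.24 (7.31 to 11.55) in spindle/root, against 2.36 in intermediate nuclei.

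Most Kcnj10 UMIs of the nuclei lay outside the named types. Unnamed nuclei held 63.5% of the Kcnj10 and 33.7% of the Kcnj13 UMIs of the nuclei, beside 35.9% of all UMIs. Unnamed cells held 32.75% of the Kcnj10 and 21.1% of the Kcnj13 UMIs of the cells, beside 41.25% of all UMIs. The 3 largest unnamed clusters, with 3698 nuclei, held 5387 of the 8636 Kcnj10 UMIs (62.4%) and 864 of the 2719 Kcnj13 UMIs (31.8%). In these clusters 34.86% to 62.37% of UMIs were mitochondrial, and Kcnj10 reached 740.7, 959.8 and 981.1 CPM. The 2 clusters of intermediate nuclei had 683.5 and 1342 CPM, with 4.58% and 18.11% of mitochondrial UMIs. Their part in the level of any type was not tested.

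Kcnj13, the Kir7.1 channel, was highest in intermediate cells, with a larger step to the next type than Kcnj10. It had 327.2, 407.1 and 299.6 CPM in the intermediate cells of captures 1, 2 and 3, a mean of 344.6 ± 55.8 (SD, n = 3). Basal cells had 82.34, 90.66 and 95.14 CPM, a mean of 89.4 ± 6.50 (SD, n = 3), and marginal cells 103.6, 50.43 and 64.54 CPM, a mean of 72.9 ± 27.5 (SD, n = 3). Every intermediate value was above every basal and marginal value, and the basal and marginal values overlapped. Spindle/root cells had 0 UMIs in all 3 captures.

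Intermediate exceeded basal cells by 2.23 ± 0.16 (SE) on the log2 scale (edgeR, adjusted p = 1.10e-20), and the log2 fold change of marginal against intermediate cells was -2.72 (adjusted p = 4.69e-25, edgeR), a pair in which 36.1% of all genes were called. Between intermediate and spindle/root cells, where 27.6% of all genes were called, only a bound can be given. Basal and marginal cells did not differ beyond the error (0.49 ± 0.23, adjusted p = 0.10, edgeR), and without capture 1 the difference passed the test (0.74, adjusted p = 0.0345, edgeR). Spindle/root cells were at 0, and 3 UMIs over the sums of captures 2 and 3 amount to 15.8 CPM. On that floor Kcnj13 was at least 21.9-fold higher in intermediate, 5.67-fold in basal and 4.62-fold in marginal cells. The call of Kcnj13 as higher in basal cells than in the mean of the other types rests on this type at 0, and was lost without capture 2 (adjusted p = 0.180, edgeR), without capture 3 (adjusted p = 0.0931, edgeR), at a resolution of 1.2 (adjusted p = 0.125, edgeR) and in DESeq2 (adjusted p = 0.0749).

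Nuclei gave the same leading type for Kcnj13. Intermediate nuclei had 626.5 CPM (1531 UMIs, 595.5 to 658.7), basal nuclei 69.92 (54.61 to 88.19), spindle/root nuclei 32.14 (11 UMIs, 16.05 to 57.52) and marginal nuclei 29.20 (24.30 to 34.79). Erythroid nuclei had 10.72 and B cell nuclei 46.88 CPM, so the marginal and spindle/root values were at or below the B cell value. Reissner's membrane nuclei had 85.5 CPM (12 UMIs, 44.18 to 149.4), an interval that overlapped that of basal nuclei. Gigyf2, in which Kcnj13 lies on the opposite strand, had 141.2 CPM in intermediate, 148.7 in basal, 131.5 in spindle/root and 168.6 in marginal nuclei. In the cells it had 44.5 ± 7.86, 41.6 ± 8.66 and 41.2 ± 7.48 CPM (SD, n = 3) in intermediate, basal and marginal cells. Intermediate cells did not differ from the other types in Gigyf2 beyond the error (log2 fold change 0.25, adjusted p = 0.354, edgeR).

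Kcnj16, the Kir5.1 subunit, marked spindle/root cells. It had 428.1 and 275.2 CPM in the spindle/root cells of captures 2 and 3, a mean of 352 ± 108 (SD, n = 2), and the 4 spindle/root cells of capture 1, outside the fit, held 23 UMIs. Marginal cells had 0, 8 and 2 UMIs, basal cells 1, 9 and 0, and intermediate cells 1, 3 and 0. No value of another type came near those of the spindle/root cells. The 8 UMIs of marginal cells in capture 2 came from 2 cells, and the 9 UMIs of basal cells in that capture also from 2 cells.

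Spindle/root exceeded basal cells, a pair in which 25.5% of all genes were called, by 5.26 ± 0.52 (SE) on the log2 scale (edgeR, adjusted p = 1.05e-14), and the log2 fold change of marginal against spindle/root cells was -5.59 (adjusted p = 1.64e-16, edgeR). Basal and marginal cells did not differ beyond the error (0.33 ± 0.74, adjusted p = 0.793, edgeR), whereas at a resolution of 1.2 basal cells were called higher (2.78, adjusted p = 0.0187, edgeR). Kcnj16 entered this fit through its spindle/root sums, so these p-values are not free of the filter. Marginal cells were called higher than intermediate cells (2.66 ± 0.84, adjusted p = 0.00774, edgeR) on 10 against 4 UMIs. That call was lost without capture 2 (adjusted p = 0.357, edgeR) and at a resolution of 1.2 (adjusted p = 0.841, edgeR).

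Nuclei showed the same leading type. Spindle/root nuclei had 526 CPM (180 UMIs, 452 to 608.7), intermediate nuclei 3.27 (8 UMIs), marginal nuclei 3.04 (13 UMIs) and erythroid nuclei 2.30 (6 UMIs). Basal nuclei had 0 UMIs, which allows up to 2.95 CPM. Kcnj16 was found in 29.2% of spindle/root nuclei (59 of 202, median depth 1425.5 UMIs) and in 1.24% of erythroid nuclei (6 of 484, median depth 5222 UMIs).

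Spindle/root barcodes fell into a cluster led by Epyc, a proteoglycan gene, and a cluster led by Anxa1 and Wfdc18, in the cells and again in the nuclei. The Anxa1 cluster of cells also had 6 marginal markers raised beside 3 of its own class. In the nuclei Kcnj16 had 841.3 CPM (158 UMIs in 105 nuclei, 715.2 to 983.2) in the Epyc cluster and 142.5 CPM (22 UMIs in 97 nuclei, 89.29 to 215.7) in the Anxa1 cluster. In the cells it had 495.3 CPM (60 UMIs in 19 cells, 378 to 637.5) and 220.7 CPM (30 UMIs in 11 cells, 148.9 to 315.1). The pooled level of Kcnj16 was higher in the Epyc cluster in the cells and in the nuclei. Its counting intervals did not overlap, but they do not measure the spread between barcodes or captures. A single spindle/root nucleus held up to 27 Kcnj16 UMIs. Its detection did not follow in the cells, where it was found in 10 of 19 cells (52.6%) of the Epyc cluster and 10 of 11 (90.9%) of the Anxa1 cluster, at median depths of 4810 and 9359 UMIs. In the nuclei it was found in 42 of 105 (40.0%) and 17 of 97 (17.5%). Kcnj10 had 250.3 and 246.1 CPM in the Epyc and Anxa1 clusters of nuclei and 181.6 and 264.9 CPM in those of cells, with overlapping intervals. These clusters were defined on the same barcodes and were not tested.

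**Figure D3:**
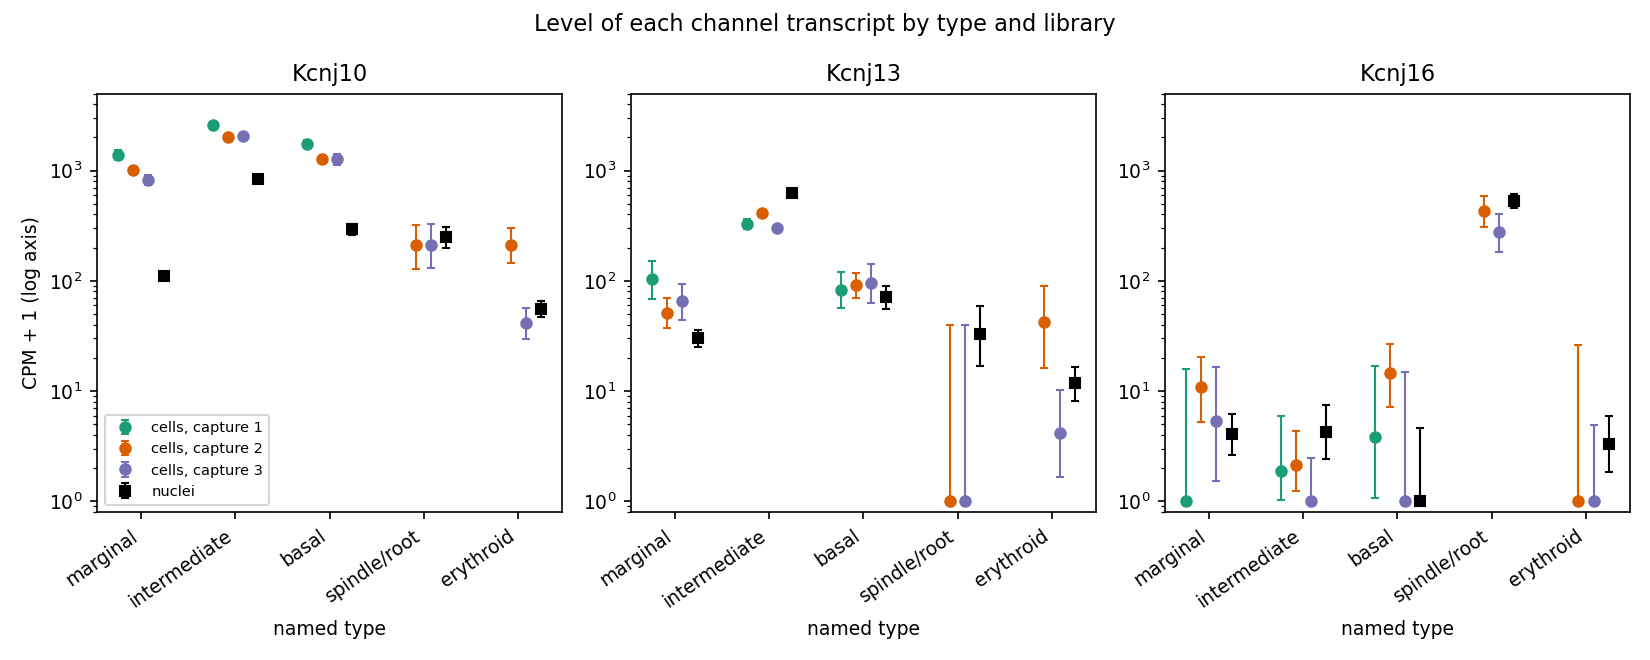
Level of Kcnj10, Kcnj13 and Kcnj16 (y axis, CPM + 1, log axis) in 4 SV types and in erythroid barcodes (x axis), with 1 point per cell capture (circles) or for the nuclei (squares) and exact 95% Poisson intervals as bars, where a library held at least 5 barcodes. Kcnj13 is highest in intermediate barcodes of all 4 libraries, and Kcnj16 in spindle/root barcodes of the 3 libraries with a value.

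Kcnj2, Kcnj8 and Kcnj15 were too low for the main fit. Kcnj2, the Kir2.1 channel, had 6.24, 7.29 and 9.70 CPM (7, 19 and 24 UMIs) in intermediate cells, a mean of 7.75 ± 1.78 (SD, n = 3). Basal cells had 5.50 ± 2.43 and marginal cells 3.17 ± 1.69 CPM (SD, n = 3), from 7 and 4 UMIs in all. The intermediate values overlapped the basal values and lay above all 3 marginal values. Spindle/root cells had 0 UMIs, which allows up to 11.7 CPM, and erythroid cells 0, which allows up to 2.75 CPM. With no filter on low counts, Kcnj2 was called higher in intermediate cells than in the mean of the other types (edgeR, adjusted p = 0.0214), a mean that holds the spindle/root cells at 0. Its log2 fold change of marginal against intermediate cells was -1.87 ± 0.71 (SE; edgeR, adjusted p = 0.0441). Its difference from basal cells did not pass (0.72 ± 0.64, adjusted p = 0.578, edgeR). In the nuclei 11 of 39 Kcnj2 UMIs were in intermediate and 22 in unnamed nuclei.

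Kcnj8, the vascular Kir6.1 subunit, had 3, 1 and 8 UMIs in cell captures 1, 2 and 3, from 1, 1 and 4 cells. Fibrocyte-like cells held 6 of these 12 UMIs, and the cell of capture 1 was in a marginal cluster. That cell also held at least 2 of the 8 macrophage markers. By capture, at least 2 of the 6 fibrocyte markers were in 0 of 1, 1 of 1 and 2 of 4 Kcnj8 cells. At least 2 of the 7 endothelial markers were found in 1 of 1, 0 of 1 and 1 of 4 cells with Kcnj8 in captures 1, 2 and 3, and at least 2 of the 6 pericyte markers likewise in 1 of 1, 0 of 1 and 1 of 4. Of cells without Kcnj8, 0% to 0.609% held at least 2 endothelial markers, 0.0761% to 0.266% pericyte and 2.82% to 3.46% fibrocyte markers. Endothelial markers summed to 23, 89 and 127 UMIs and pericyte markers to 104, 133 and 231 UMIs in captures 1, 2 and 3. In capture 2, 3 of the 7 endothelial markers were at 0, and 1 of the 6 pericyte markers was at 0 in every cell capture. Abcc9, the gene of the partner SUR2, had 4, 1 and 30 UMIs in the cell captures and 12 in the nuclei. Kcnj8 was found in 0 of 9754 nuclei, which allows a share of nuclei with a UMI of up to 0.0308% and does not limit how many express it. Fewer cells of a type and less RNA per cell cannot be told apart in library totals.

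Kcnj15 was found in 0 of 3154 cells, which allows a share of cells with a UMI of up to 0.0951%, and its 3 UMIs in the nuclei were in 2 spindle/root nuclei and 1 unnamed nucleus. Of the other 9 inward rectifiers on the pathway list, only Kcnj9 had UMIs in the cells (3, 11 and 7). In the nuclei Kcnj6 had 29, Kcnj3 17 and Kcnj9 9 UMIs, and the other 6 had 0 to 2.

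Kcnj10 was then asked about together with Kcnj13 in single barcodes. In intermediate cells with a Kcnj10 UMI, Kcnj13 was also found in 70.5% (93 of 132), 74.9% (308 of 411) and 69.0% (267 of 387) of captures 1, 2 and 3, a mean of 71.5% ± 3.10 (SD, n = 3). In the few intermediate cells without Kcnj10 it was found in 1 of 3, 3 of 6 and 4 of 11 cells. The exact 95% intervals with and without Kcnj10 overlapped in all 3 captures. Nearly all Kcnj13-positive intermediate cells held Kcnj10, namely 98.9%, 99.0% and 98.5%, beside 97.8%, 98.6% and 97.2% of all intermediate cells.

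Depth moved with this result. Intermediate cells with Kcnj10 had a median of 7270, 5954 and 5952 UMIs, and those without had 2486, 2251.5 and 2135. Each barcode was therefore thinned to 1000 UMIs, and the share expected over all possible draws was computed. Kcnj13 was then expected in 27.1%, 31.8% and 25.6% of cells with Kcnj10 and in 28.5%, 38.2% and 29.1% of cells without. At 500 UMIs the shares were 15.9%, 18.4% and 14.3% with and 17.4%, 22.2% and 16.5% without. At matched depth the expected share was thus no higher with Kcnj10 in any of the 3 captures, a difference that was not tested. Here with and without Kcnj10 refer to the thinned counts. In 1 draw of 1000 UMIs, 84.4%, 83.9% and 79.7% of intermediate cells held Kcnj10, against 97.8%, 98.6% and 97.2% at full depth. Most cells without it in a draw thus held it at full depth, so these shares do not describe cells that lack Kcnj10.

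Intermediate nuclei held Kcnj13 in 49.2% (448 of 911, exact 95% interval 45.9 to 52.5) with Kcnj10 and in 42.9% (242 of 564, 38.8 to 47.1) without, at median depths of 1480 and 1287.5 UMIs. Thinned to 1000 UMIs, with 92 shallower nuclei left out, the expected shares were 37.4% and 36.4%, and at 500 UMIs 23.5% and 23.2%. Erythroid nuclei held Kcnj10 in 20.9% (101 of 484) and Kcnj13 in 5.58% (27 of 484) at a median depth of 5222 UMIs, and intermediate nuclei in 61.8% and 46.8% at a median of 1394. Over all kept nuclei, Kcnj13 was found in 25.5% of those with and 10.6% of those without Kcnj10, a contrast that includes the difference between types.

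**Figure D4:**
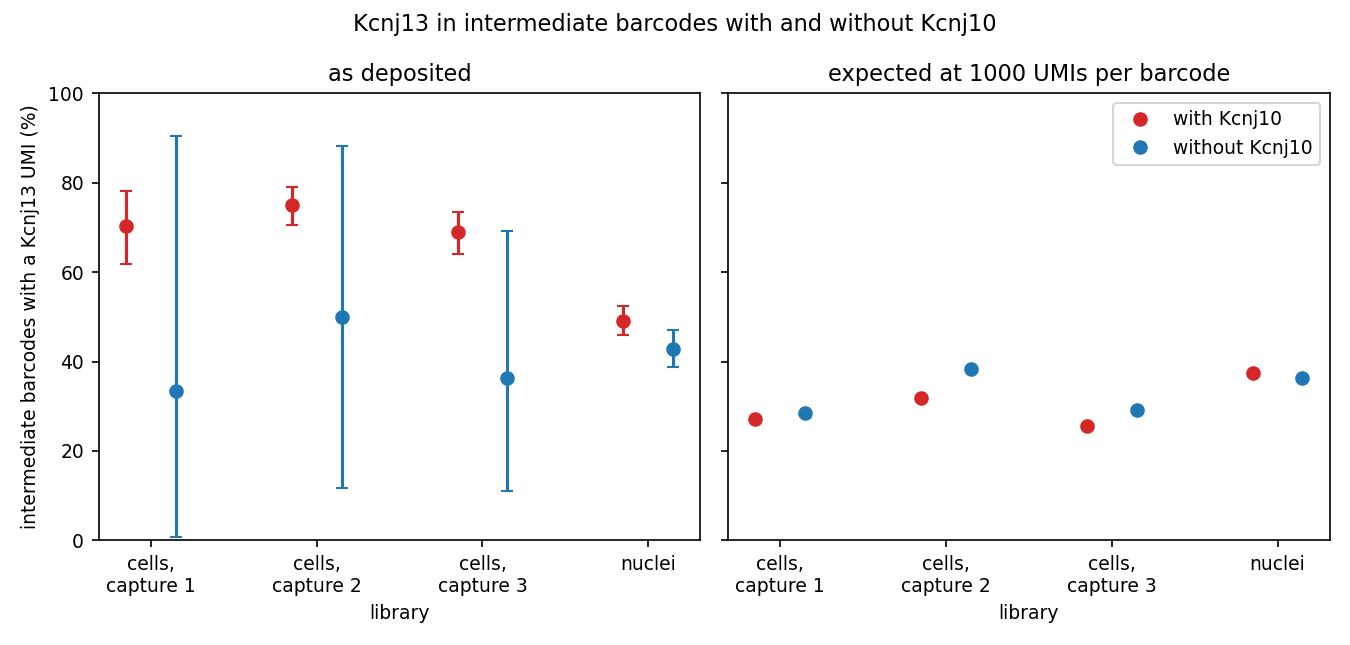
Share of intermediate barcodes with a Kcnj13 UMI (y axis, percent) among those with (red) and without (blue) a Kcnj10 UMI in each library (x axis), as deposited with exact 95% binomial intervals as bars (left) and as the share expected over all draws of 1000 UMIs per barcode, with no error drawn (right). On the right, with and without Kcnj10 are taken from the thinned counts. After thinning, nuclei with and without Kcnj10 are at 37.4% and 36.4%.

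Among the 4 types of cells, Kcnj10 and Kcnj16 were found together most often in spindle/root cells, at a mean of 46.15% (captures 2 and 3). The means over 3 captures were 2.92% of basal, 2.44% of marginal and 0.487% of intermediate cells. Where basal, marginal or intermediate cells held Kcnj16 (3, 4 and 4 cells), 100% of them also held Kcnj10. Among all basal, marginal and intermediate cells, 97.9%, 82.8% and 97.9% held Kcnj10. All 4 spindle/root cells of capture 1 held both. In captures 2 and 3, Kcnj16 was found in 6 of 7 and 6 of 8 cells with Kcnj10 and in 1 of 6 and 3 of 5 cells without. Cells with Kcnj10 were deeper, with a median of 8982 against 4535.5 UMIs in capture 2 and 7372.5 against 2953 in capture 3. In spindle/root nuclei Kcnj16 was found in 36.8% (21 of 57, 24.5 to 50.7) with and in 26.2% (38 of 145, 19.3 to 34.2) without Kcnj10, intervals that overlapped. Thinned to 1000 UMIs, these shares were expected at 21.4% and 22.9%, so the order turned. In the cells of captures 2 and 3 the expected shares at 1000 UMIs were 44.7% and 35.2% with and 21.4% and 24.2% without, from an expected 1.72 and 2.05 cells with Kcnj10. In intermediate nuclei with Kcnj10, 0.768% (7 of 911) held Kcnj16, and in erythroid nuclei with Kcnj10 it was 0.990% (1 of 101).

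Cells and nuclei were set side by side without a test, since there is 1 nucleus library. Kcnj10 was 2.65-fold higher in intermediate cells (mean of 3 captures) than in intermediate nuclei, 4.85-fold in basal and 9.81-fold in marginal, but 0.846-fold in spindle/root. Kcnj13 was 0.550-fold in intermediate, that is lower in the cells, 1.28-fold in basal and 2.50-fold in marginal. Kcnj16 was 0.669-fold in spindle/root. For Kcnj10 and Kcnj13 the ratio of cells to nuclei was lowest in the type with the highest level among intermediate, basal and marginal cells. Intermediate marker RNA moved in the same way. Its sum in marginal barcodes was 26.6% to 31.9% of the intermediate level in the cells and 4.87% in the nuclei. Single markers in marginal nuclei ranged from 0.936% to 45.8% of their intermediate level. The part of this RNA in the ratios was not tested.

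Detection followed. Kcnj10 was found in 97.9% ± 0.664 of intermediate, 98.7% ± 2.31 of basal and 82.5% ± 2.68 of marginal cells (SD, n = 3), and in 61.8%, 26.7% and 13.3% of such nuclei. Thinned to 1000 UMIs, it was expected in 55.6%, 49.7% and 40.8% of marginal cells in captures 1, 2 and 3 and in 8.51% of marginal nuclei, beside 8.06% and 4.14% of erythroid cells in captures 2 and 3 and 5.42% of erythroid nuclei. In intermediate barcodes it was expected in 86.4%, 80.7% and 80.7% of cells and 49.5% of nuclei. In spindle/root barcodes the order was the other, with 13.2% and 15.8% of cells in captures 2 and 3 and 19.1% of nuclei. Kcnj13 was expected in 27.3%, 33.1% and 26.3% of intermediate cells and 36.9% of intermediate nuclei, but in 8.19%, 4.23% and 4.19% of marginal cells and 2.57% of marginal nuclei. In intermediate barcodes, at 1000 UMIs in total, Kcnj10 was thus found more often in cells and Kcnj13 more often in nuclei. Mitochondrial genes made up 32.69%, 33.12% and 37.72% of the UMIs of intermediate cells in captures 1, 2 and 3. In intermediate nuclei they made up 7.67%, so depth was not matched for the remaining genes. With mitochondrial genes left out of the total, Kcnj13 was at 525.3 ± 72.3 CPM (SD, n = 3) in intermediate cells and 678.5 CPM in intermediate nuclei.

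The genes most like each channel across the clusters of nuclei were named by the correlation of log2(CPM + 10) among genes with at least 200 UMIs in the nuclei. Clusters share a library and depth, so these values are descriptions. For Kcnj10 they were Gsta1, Fxyd3 and 5031439G07Rik (r = 0.94, 0.94 and 0.92 over 22 clusters of nuclei, and 0.86, 0.92 and 0.92 over 20 clusters of cells). For Kcnj13 they were Dct, Met and Nrp2 (r = 0.95, 0.94 and 0.93, and 0.93, 0.87 and 0.94 in cells), of which Dct and Met are also markers used to name intermediate clusters. For Kcnj16 they were Epyc, Vldlr and Ceacam16 (r = 0.92, 0.87 and 0.87, and 0.79, 0.86 and 0.91 in cells), of which Epyc is a marker of the spindle/root class. Kcnj10 and Kcnj13 had r = 0.84 with each other in nuclei and 0.87 in cells, and Kcnj10 and Kcnj16 0.10 and -0.07.

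The potassium route around these channels was described from a list of 31 genes, of which 18 were tested. In marginal cells 9 were called higher and 5 lower, beside 16.0% and 9.53% of all genes tested. Of those 9, Kcnq1, Kcne1 and Bsnd are also markers used to name marginal clusters, so their calls are not independent of the names. In intermediate cells 4 were higher and 10 lower (18.5% and 16.7% of all genes), in basal cells 7 and 6 (15.8% and 10.1%) and in spindle/root cells 3 and 7 (12.3% and 9.99%). The median log2 fold change of the list was 0.69, -1.24, -0.11 and -0.26 in these types, beside 0.09, 0.05, 0.04 and -0.13 over all genes tested. Marginal cells were higher in the apical channel subunits Kcnq1 (log2 fold change 3.93, edgeR, adjusted p = 7.98e-39) and Kcne1 (3.45, adjusted p = 1.08e-38, edgeR), in the cotransporter gene Slc12a2 (2.04, adjusted p = 1.83e-36, edgeR) and in the sodium pump subunit Atp1b2 (4.07, adjusted p = 3.60e-44, edgeR).

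Intermediate cells, where Kcnj10 and Kcnj13 were highest, were higher in the pump subunit Atp1b1 (1.83, adjusted p = 1.01e-33, edgeR) and in the connexin gene Gjb6 (1.04, adjusted p = 1.17e-15, edgeR). Basal cells were higher in the connexin genes Gjb2 (2.37, adjusted p = 3.78e-38, edgeR) and Gjb6 (1.45, adjusted p = 9.78e-23, edgeR). Spindle/root cells were higher than the mean of the other types in Slc12a7, a potassium chloride cotransporter gene (1.39, adjusted p = 0.00602, edgeR). They were likewise higher in Atp1b2 (0.82, adjusted p = 6.14e-05, edgeR). Both stood higher still in marginal cells, at 221 against 125.7 CPM for Slc12a7 and 4301 against 815.7 CPM for Atp1b2. Slc12a7 was also called higher in marginal cells. Within the spindle/root type Atp1b2 did not follow Kcnj16, with 1552 CPM in the Anxa1 and 82.55 CPM in the Epyc cluster of cells, and 680.0 and 378.1 CPM in those of nuclei.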

How the data were processed

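Per the labels, the authors aligned reads to mm10 and counted UMIs with Cell Ranger 2.0.0. The deposited counts are raw UMIs per gene and barcode, per capture before aggregation. Doublets were scored with Scrublet in scanpy 1.11.5, and 0.8% of barcodes per 1000 barcodes were removed. Clustering used Seurat 5.3.0 in R 4.3.3 (2000 variable genes without Kcnj genes, 37 principal components for cells and 40 for nuclei by JackStraw, smart local moving, resolution 0.8), separately for cells and nuclei. Clusters were named where at least 3 markers of 1 of 16 classes were raised, and stayed unnamed where a second class scored at least 0.67 of the first, another class had more markers among the top 10 genes, or depth was low with no own marker there. Types therefore come from the same counts that were then compared.

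CPM was computed over genes in both lists. Shares expected over all draws of 1000 or 500 UMIs (hypergeometric) were chosen after the data were seen. UMIs summed per capture and type (at least 5 cells) were tested in edgeR 4.0.16 (TMM, filterByExpr, robust quasi-likelihood fit, capture as block, Benjamini-Hochberg over all genes), fitted as all 4 types together. The capture pairs its sums, which come from 1 suspension. Deviations from type means correlated between 0.0408 and 0.394 over 15 pairs. Captures are the replicates, and no p-value was computed from barcodes. On simulated sums of 7156 genes, the spindle/root comparison recovered 86 of 95 genes changed 4-fold and 22 of 89 changed 2-fold, and the intermediate comparison 99 of 99 and 79 of 93. Alternatives were other doublet, clustering, scaling, filter and depth settings, DESeq2 1.42.0, and leaving out each capture. The genes, lists, markers and motifs were chosen with earlier results of these data known. Intervals came from scipy 1.17.1. Some results are not reported here.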

Additional observations from a re-analysis of the deposited data

How the results depend on the processing

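No paired analysis was possible because cells and nuclei came from separate suspensions and share only 1 replicate number. Between types, the fit with no replicate block called the same numbers of channels as the fit with the block in every type, and the log2 fold change of Kcnj10 in intermediate cells was 2.03 without and 1.98 with it. Of the 21 fold changes of single channels, 0 changed direction while called under any alternative, and 15 kept their side of the threshold under all 15. The alternative of at least 10 cells per sum could change nothing, since the smallest sums in the fit held 13 cells.

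With DESeq2, 839 genes were higher in intermediate cells, 478 lower in basal and 359 lower in spindle/root cells, and 1 channel instead of 2 was higher in basal cells. With no scaling beyond the library total, 701 genes were higher and 2127 lower in intermediate cells and 456 lower in spindle/root cells. At a resolution of 1.2, 1 channel was lower in marginal cells (Kcnj16) and 1 higher in basal cells. Leaving out 1 capture gave 432 to 554 genes lower in marginal, 376 to 534 lower in basal, and 534 to 876 higher and 389 to 724 lower in spindle/root cells, with 1 to 2 channels higher in basal cells. Fewer samples enter these fits.

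Co-detection depended on depth. In thinned counts, with and without Kcnj10 refer to the counts left after thinning. In 1 random draw of 1000 and of 500 UMIs, Kcnj13 was found in 27.4% and 16.7% of intermediate cells with Kcnj10 and in 31.0% and 15.2% without. In nuclei it was found in 36.4% and 24.3% with and in 36.3% and 21.1% without. With at least 2 UMIs required, the share with Kcnj10 was 49.4% in cells and 31.8% in nuclei, and without it 19.8% in nuclei. At a resolution of 1.2 the share with Kcnj10 was 75.1% in cells. Kcnj16 among spindle/root cells with Kcnj10 was at 70.9% at a resolution of 1.2, 100% with at least 2 UMIs and 0% in the draw of 1000 UMIs, where 1, 0 and 2 cells of captures 1, 2 and 3 still held Kcnj10, and in nuclei at 22.7% at 500 UMIs. Another draw of 1000 UMIs held Kcnj10 in 15.4% of the 13 spindle/root cells of capture 2, so single draws of these few cells differed. Kcnj10 among Kcnj16-positive spindle/root cells was at 0% thinned to 1000 or 500 UMIs and 56.7% with at least 2 UMIs, and in nuclei at 22.2%, 19.2% and 16.1%. The shares expected over all draws, chosen after the data were seen, were at 1000 and 500 UMIs 28.17% and 16.21% for Kcnj13 in intermediate cells with Kcnj10, 37.42% and 23.50% in such nuclei, 31.96% and 18.69% in cells without and 36.40% and 23.17% in nuclei without. For Kcnj16 in spindle/root barcodes with Kcnj10 they were 39.98% and 24.74% in cells and 21.36% and 16.86% in nuclei, and for Kcnj10 in those with Kcnj16 22.82% and 12.62% in cells and 18.09% and 12.23% in nuclei.

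The log2 ratio of cells to nuclei in intermediate barcodes was 1.41 for Kcnj10, and 1.90 with mitochondrial genes left out of the total and 1.61 over all kept barcodes. For Kcnj13 it was -0.86, and -0.47 at a resolution of 1.2, -0.62 with 20 principal components, -0.37 without mitochondrial genes and 0.16 over all kept barcodes, a reversal where types are no longer held apart. For Kcnj16 in spindle/root barcodes it was -0.58, and -0.080 with no doublet removal. At a resolution of 0.4 no nuclei were named basal.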

Other observations

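Kcnj2 in the nuclei was most frequent in an unnamed cluster of 39 nuclei led by Mgp, Galnt13 and Slc4a10, where 12.8% of nuclei held it, at 72.1 CPM from 5 UMIs. Kcnj13 reached 367 CPM (33 UMIs) in an unnamed cluster of 46 nuclei led by 5430416O09Rik and Sorcs3, beside 411 CPM of Kcnj10 and 24150 CPM of the summed intermediate markers. The 2 clusters of intermediate nuclei differed in Kcnj10, with 683.5 CPM in the larger and 1342 CPM in the smaller, while Kcnj13 was at 611 and 679 CPM.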
